A study of Arabidopsis thaliana with 6 samples.

Results

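The genes described here encode the protein spools that DNA is wound on and the ring that unwinds it for copying: the core histones H2A, H2B, H3 and H4, and the MCM2-7 helicase. They were chosen from the gene descriptions in the expression table, by the words core histone, histone H2, H3 or H4, or MCM2/3/5, leaving out enzymes that add or remove methyl or acetyl groups. Of 32962 genes in the table, 58 met that rule. They comprise 46 core histone genes, the 6 MCM2-7 genes and 6 rows whose description holds one of these phrases although they belong to neither group. The samples were seedlings of Arabidopsis thaliana, 25 days old, grown at 25 °C under days of 16 h light and 8 h dark. EsANAC029-OE seedlings (3 libraries), which overexpress a NAC transcription factor gene of the grass Elymus sibiricus, were compared with wild-type Col-0 seedlings (3 libraries). The study, by its title, concerns the response to light. The promoter of the transgene, the number of transgenic lines and whether plants were pooled are not given in the labels, and the transgene itself is not measured in the table. Nothing says that the libraries of a genotype came from separate plantings, so p-values measure only the spread between these samples.

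As background, a nucleosome holds a pair each of H2A, H2B, H3 and H4. Plants, like animals, make most of their canonical histones while DNA is being copied, so the transcripts of H2A, H2B, H3.1 and H4 genes mark cells in S phase. H3.3 and H2A.Z are replacement forms that are also laid down outside replication. MCM2 to MCM7 form the hexamer loaded on origins before S phase, and their genes are classic targets of E2F transcription factors. In growing seedlings both groups of genes are used mostly in meristems and young organs.

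The histone octamer and the E2F site are elements known from plant histone and MCM genes. Some of the member genes hold them upstream, and a few windows are printed as examples of genes that follow the main pattern of the data, with an H3.3 gene for contrast. Windows of 250 bases before the annotated gene start were read from the RefSeq TAIR10.1 assembly, whose coordinates for all 58 members equal those in the table. All of them are written 5′ to 3′ on the strand of the gene, with matches in capitals. The histone octamer was searched as CGCGGATC and the E2F site as TTTGGCGC, TTTCCCGC, TTTGCCGC or TTTCGCGC, each on both strands, and none of the matches printed overlap another match. The H4 gene AT5G59690 (chr5:24051224-24051473, plus strand) holds 1 octamer, the H3.1 gene AT1G09200 (chr1:2972335-2972584, minus strand) holds 2, MCM2 (chr1:16969964-16970213, plus strand) and MCM5 (chr2:3527501-3527750, minus strand) hold 1 E2F site each, and the H3.3 gene AT5G10980 (chr5:3473571-3473820, minus strand), shown for contrast, holds none of these letters. The contrast is of 1 gene only: the H3.3 gene AT4G40040, not printed, holds 1 octamer. Matches and the main pattern did not always go together, and their relation was not tested. MCM7, HTA11 and the H2B gene AT2G37470 follow that pattern with no octamer or E2F match. The H4 gene AT1G07660 holds an octamer without following it.
AT5G59690: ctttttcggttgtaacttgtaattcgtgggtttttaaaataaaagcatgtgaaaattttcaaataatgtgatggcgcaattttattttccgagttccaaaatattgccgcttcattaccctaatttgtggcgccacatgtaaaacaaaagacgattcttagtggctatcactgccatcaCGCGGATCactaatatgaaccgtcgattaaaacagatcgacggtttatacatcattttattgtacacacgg
AT1G09200: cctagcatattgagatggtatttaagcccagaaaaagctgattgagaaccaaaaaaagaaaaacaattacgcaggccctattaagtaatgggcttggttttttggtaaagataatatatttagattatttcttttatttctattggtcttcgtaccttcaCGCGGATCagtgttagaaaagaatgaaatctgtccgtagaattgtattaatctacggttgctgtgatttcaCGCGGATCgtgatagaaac
MCM2: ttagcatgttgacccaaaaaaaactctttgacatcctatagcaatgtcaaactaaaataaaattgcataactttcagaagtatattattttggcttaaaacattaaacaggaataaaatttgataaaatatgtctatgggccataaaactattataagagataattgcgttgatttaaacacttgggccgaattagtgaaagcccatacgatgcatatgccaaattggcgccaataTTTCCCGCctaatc
MCM5: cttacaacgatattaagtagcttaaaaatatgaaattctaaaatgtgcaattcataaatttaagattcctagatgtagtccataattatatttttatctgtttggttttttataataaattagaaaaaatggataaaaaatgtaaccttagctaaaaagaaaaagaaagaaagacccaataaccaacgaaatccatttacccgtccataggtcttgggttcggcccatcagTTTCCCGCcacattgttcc
AT5G10980: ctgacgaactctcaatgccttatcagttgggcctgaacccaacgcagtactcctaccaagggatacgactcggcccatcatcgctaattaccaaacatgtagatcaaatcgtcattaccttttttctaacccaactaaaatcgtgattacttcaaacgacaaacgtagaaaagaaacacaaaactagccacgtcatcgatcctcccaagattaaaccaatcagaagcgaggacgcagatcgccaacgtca

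The octamer was present in 9 of the 46 histone windows (19.6%), against 37 of 27419 windows of all protein-coding genes (0.135%). By class it was found upstream of 3 of 5 H3.1 genes, 2 of 4 canonical H2A genes (HTA10 and HTA13), 2 of 8 H4 genes, 1 of 3 H2A.W genes (HTA6) and 1 of 3 H3.3 genes (AT4G40040), and in none of 11 H2B windows. An E2F site lay upstream of 5 of the 6 MCM genes, all but MCM7, against 386 of all protein-coding windows (1.41%). Among histone genes the E2F letters were found upstream of HTB2 and of the H4 genes AT3G45930 and AT3G46320. The telo-box AAACCCTA, another element of plant ribosomal and histone genes, was found in 1 of 46 histone windows and in 4.47% of all windows. A match is a run of letters and says nothing about binding, and a window without one lacks only these letters.

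**Figure D1:**
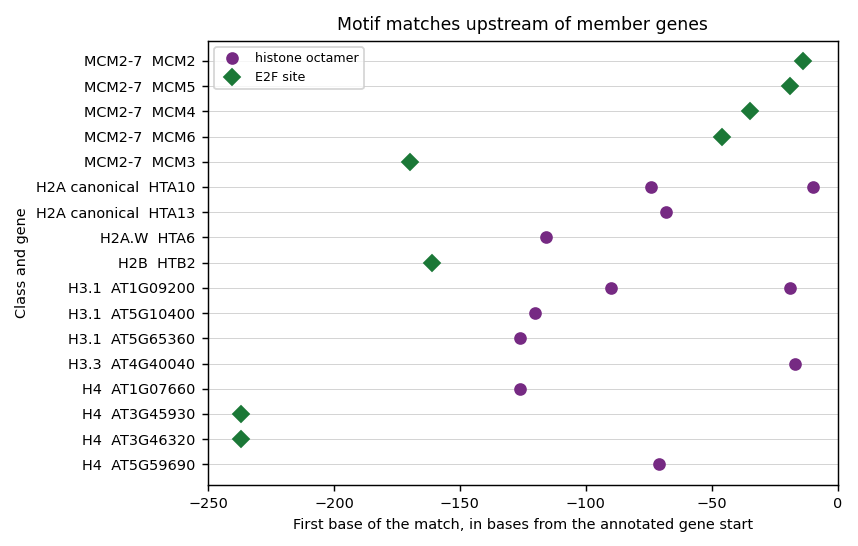
Position of each histone octamer (circles) and E2F site (diamonds) in the 250 bases upstream of member genes; the horizontal axis is the distance in bases of the first base of the match from the annotated gene start, and each row is 1 gene with its class. In 4 of the 5 MCM genes with a site it lies within 50 bases of the start, and in MCM3 it starts at -170.

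Before the members are described, the libraries themselves need stating. The recovered reads came to 21688167, 20802908 and 19608819 for EsANAC029-OE replicates 1 to 3, and lay between 21121138 and 21715274 in wild type. Over all tested genes EsANAC029-OE replicate 1 stood apart: its log2(FPKM + 1) values had a Pearson r, across genes and as a description, of 0.821 to 0.827 with the other EsANAC029-OE libraries and of 0.691 to 0.734 with wild type. EsANAC029-OE replicates 2 and 3 had an r of 0.942 with each other and of 0.857 to 0.899 with wild type, and the wild-type libraries one of 0.967 to 0.977 among themselves. EsANAC029-OE replicate 2 stood apart in some tissue markers. Summed over a root list of 6 genes it had 274 FPKM (fragments scaled to gene length, library size and a further factor per library). The other 5 libraries had 10.2 to 24.4 FPKM. Nearly all of the 274 FPKM in EsANAC029-OE replicate 2 came from PYK10 (104 FPKM) and AGP31 (161 FPKM). Of the other root genes in that library, SCR was at 8.51 FPKM, among the wild-type values of 6.88 to 9.195 FPKM, MYB36 and CASP1 were at 0.305 and 0.170 FPKM, and RSL4 was at 0. The shoot meristem list of 5 genes summed to 11.1, 20.09 and 17.7 FPKM in EsANAC029-OE replicates 1, 2 and 3, against 18.001 to 22.5 FPKM in wild type, most of it CLV1. CLV1 was at 11.8 FPKM in EsANAC029-OE replicate 2, below wild type, while STM and KNAT1 were at 3.96 and 4.27 FPKM there, against 0 to 0.173 FPKM in the other 5 libraries. Summed over 7 genes of young leaf growth, EsANAC029-OE replicates 1, 2 and 3 had 6.76, 44.4 and 16.6 FPKM, against 12.7 to 18.03 FPKM in wild type. Of those genes, ANT was at 0.0404 FPKM in EsANAC029-OE replicate 1, 10.5 FPKM in replicate 2 and 1.40 FPKM in replicate 3, against 1.32 to 2.16 FPKM in wild type. Summed over 4 photosynthesis genes that mark green leaf, the 3 EsANAC029-OE libraries had 4879, 14354 and 22289 FPKM, against 39963 to 47129 FPKM in wild type, so these markers were present in all 6 libraries, at lower levels in EsANAC029-OE. WUS was at 0 in every library. The flower list of 6 genes summed to 4.04 FPKM in EsANAC029-OE replicate 2 and to 0.438 to 1.24 FPKM in the other 5 libraries. Most of it in that replicate was SEP3, at 3.17 FPKM against 0.137 to 0.788 FPKM in the other libraries. The pollen list summed to at most 0.643 FPKM.

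Of the 58 members, 49 reached at least 1 FPKM in at least 3 libraries and were tested: 40 histone genes, the 6 MCM genes and 3 of the rows outside both groups. None of the 49 differed between EsANAC029-OE and wild type at a Benjamini-Hochberg adjusted p under 0.05 (limma on log2(FPKM + 1), two-sided), against 1359 of 17221 genes tested (7.89%; 743 higher and 616 lower). At an unadjusted p under 0.05 (limma) there were 2 of the 49 members (4.08%), HTA4 and emb1688, against 4878 of all genes tested (28.3%). With limma-voom on the recovered reads, again 0 members were called, against 862 of the 17221 genes. The 3 EsANAC029-OE libraries lay above all wild-type libraries in 3 of the 49 members (19.6% of all genes tested) and below them all in 2 (20.3% of all genes tested). The median log2 fold change of the 46 tested histone and MCM genes was -0.05, and that of all tested genes -0.01.

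The mean hid a large split among the EsANAC029-OE seedlings. In 36 of the 46 histone and MCM genes, EsANAC029-OE replicate 1 was the lowest and replicate 2 the highest of all 6 libraries, an order that 7.69% of all tested genes had. Replicate 1 lay below all 3 wild-type libraries in 38 of the 46 (42.9% of all genes tested), and replicate 2 lay above them all in 42 of the 46 (37.2%). Replicate 3 lay above all wild-type libraries in 24 (35.7%) and below them all in 7 (38.7%). On the log2(FPKM + 1) scale, replicate 1 was lower than the wild-type mean by 1 or more in 24 of the 46 genes (19.9% of all genes tested), and replicate 2 was higher by 1 or more in 11 (9.88%). The median difference of the 46 genes from the wild-type mean was -1.09, 0.77 and 0.12 in EsANAC029-OE replicates 1, 2 and 3, while that of all tested genes was 0.02, -0.03 and -0.02. The SD among the EsANAC029-OE libraries exceeded that among the wild-type libraries in 45 of the 46 genes (82.1% of all genes tested), and its median was 0.92 in EsANAC029-OE and 0.17 in wild type; over all tested genes the medians were 0.39 and 0.15. These libraries are of seedlings, and the share of each tissue in them was not measured. Fewer dividing cells, another mix of sampled tissues and less of these RNAs per cell cannot be told apart. The young leaf growth and root lists were also lowest in replicate 1 and highest in replicate 2. The shoot meristem and green leaf lists were lowest in replicate 1 but highest in a wild-type library. The flower list was lowest in replicate 3 and highest in replicate 2, and the pollen list was highest in a wild-type library. The part of these tissues in the order of the histone and MCM genes was not tested.

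**Figure D2:**
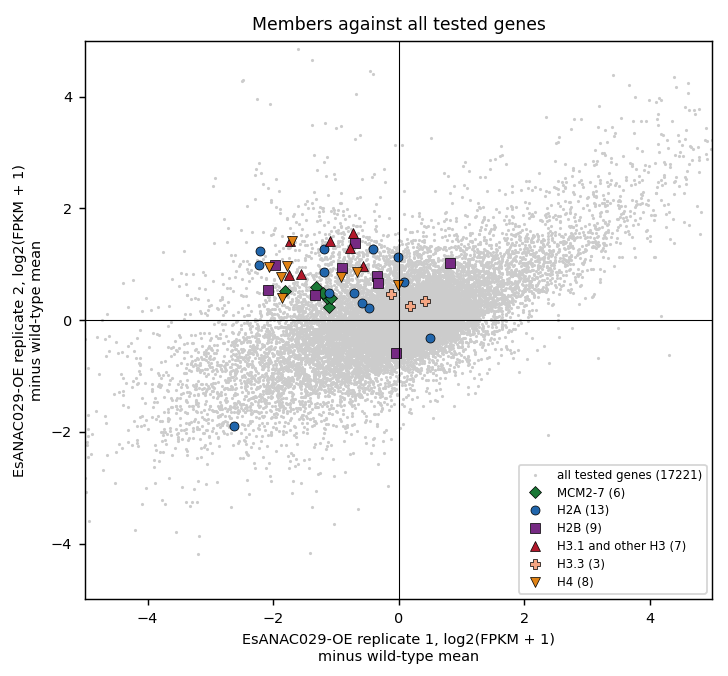
Difference from the wild-type mean on the log2(FPKM + 1) scale in EsANAC029-OE replicate 1 (horizontal) and replicate 2 (vertical), for all 17221 tested genes (grey; 135 lie outside the plotted range of 5 either way) and for the 46 tested histone and MCM genes (coloured by class). The members gather in the upper left, low in replicate 1 and high in replicate 2, while H3.3 genes lie near the origin and HTA4 lies far down on the left.

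The MCM helicase genes showed the split in all 6 of its subunits. MCM7, which had the largest fold change of the class, was at 1.02, 9.16 and 6.40 FPKM in the EsANAC029-OE libraries, against 6.95, 5.52 and 5.96 FPKM in wild type. Those EsANAC029-OE values rest on 62, 632 and 382 reads. The wild-type libraries thus lie between EsANAC029-OE replicates 1 and 2, and replicate 3 lies among them. The fitted log2 fold change of MCM7 was -0.42 ± 0.589 (SE; adjusted p = 0.679, limma). Part of the gene is overlapped by 2 other annotated genes, by up to 437 bases, and the strand setting of the counting is not given in the sources used here. MCM5, the subunit with the highest level, was at 2.31, 8.69 and 6.88 FPKM in EsANAC029-OE and at 6.51, 5.98 and 6.55 FPKM in wild type; here replicates 2 and 3 lay above wild type and replicate 1 below. Its log2 fold change was -0.22 ± 0.404 (SE; adjusted p = 0.761, limma).

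The other subunits kept to narrow bands in each library. EsANAC029-OE replicate 1 differed from the wild-type mean by -1.82 to -1.08 on the log2 scale over the 6 subunits, and replicate 2 by 0.23 to 0.59. Summed over the 6 genes, MCM2-7 came to 8.82, 42.2 and 28.3 FPKM in the EsANAC029-OE libraries and 31.2, 27.8 and 30.4 FPKM in wild type. That sum was counted from 588, 3149 and 1819 reads in EsANAC029-OE, and from 1493 to 1790 reads in wild type. The SD of the sum was 16.8 FPKM in EsANAC029-OE and 1.802 FPKM in wild type, about means of 26.4 and 29.8 FPKM (n = 3 each). MCM8 and MCM9, relatives that act outside the hexamer in recombination and repair in animals, are not members and did not show the split: MCM8 was at 1.70, 1.498 and 1.90 FPKM in EsANAC029-OE and at 1.604 to 1.81 FPKM in wild type, and MCM9 at 1.47, 1.601 and 1.35 FPKM in EsANAC029-OE and at 1.73 to 2.17 FPKM in wild type.

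**Figure D3:**
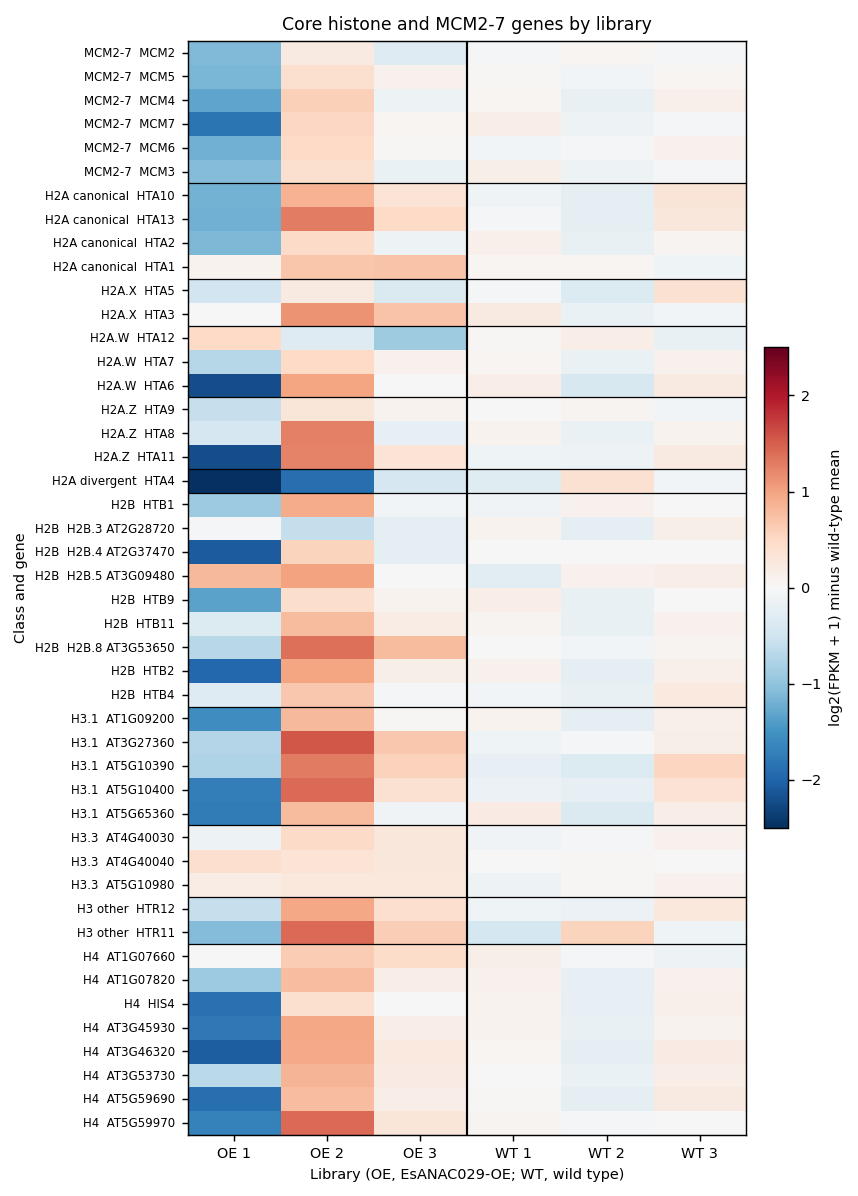
Each of the 46 tested histone and MCM genes (rows, grouped by class) in each library (columns, EsANAC029-OE left of wild type); the colour is log2(FPKM + 1) minus the wild-type mean of that gene, blue for lower and red for higher. The column of EsANAC029-OE replicate 1 is mostly blue and that of replicate 2 mostly red; the 3 H3.3 rows are pale, and HTA4 is blue in all 3 EsANAC029-OE columns.

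H3 gave the clearest difference between 2 forms of one histone. H3.1 is the form placed on newly copied DNA and H3.3 the replacement form, which in plants marks active genes. AT5G65360, the H3.1 gene with the highest level, was at 18.1, 111 and 59.3 FPKM in EsANAC029-OE and at 72.9, 49.1 and 70.9 FPKM in wild type. AT3G27360, the H3.1 gene with the largest fold change, was at 1.41, 10.7 and 5.38 FPKM in EsANAC029-OE and at 2.70, 2.90 and 3.39 FPKM in wild type. In both genes the EsANAC029-OE libraries lie on either side of wild type, and neither was called. AT3G27360 shares 328 bases with another annotated gene on its strand. The log2 fold changes were -0.35 ± 0.627 and 0.50 ± 0.551 (SE; adjusted p = 0.75 and 0.587, limma). All 5 H3.1 genes had replicate 1 lowest and replicate 2 highest.

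Of the 3 H3.3 genes, 1 had the order of replicate 1 lowest and replicate 2 highest. AT4G40040 was at 202, 191 and 184 FPKM in EsANAC029-OE, against 150, 154 and 150 FPKM in wild type, and it was the member with the highest level. AT5G10980 was at 147, 154 and 155 FPKM in EsANAC029-OE, against 118, 131 and 139 FPKM in wild type. In these 2 genes the groups did not overlap, with EsANAC029-OE higher, as in 19.6% of all genes tested. AT4G40030, which lies next to AT4G40040 on chromosome 4 (chr4:18555532-18557106 and chr4:18557149-18558945 on the minus strand), was at 74.1, 112 and 98.1 FPKM in EsANAC029-OE and at 76.1, 79.3 and 87.5 FPKM in wild type, and it was the H3.3 gene with that order; its groups overlapped. The log2 fold change of AT4G40040 was 0.35 ± 0.174 (SE; adjusted p = 0.247, limma) and those of the others were 0.23 and 0.21 (adjusted p = 0.417 and 0.551). When samples were scaled by library size alone, the median of all genes moved from -0.01 to 0.31. AT4G40040 was then called (0.71, adjusted p = 0.0401, limma). Its value was 0.39 once that shift of the median was taken off.

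Summed by form, H3.1 came to 50.2, 314 and 170 FPKM in EsANAC029-OE and to 162, 126 and 182 FPKM in wild type. H3.3 came to 423, 458 and 438 FPKM in EsANAC029-OE, all above the 344, 365 and 376 FPKM of wild type. H3.1 thus made up 10.6%, 40.7% and 27.9% of the 2 forms in the EsANAC029-OE libraries and 32.1%, 25.7% and 32.6% in the wild-type libraries. The 5 H3.1 coding sequences are of equal length, 411 bases, and 80.3% to 89.5% identical in pairs, and they are 74.0% to 80.3% identical to the 2 H3.3 genes of that length. The authors' way of assigning reads between such copies is not given in the sources used here, so the sums are less open to it than single genes.

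Other H3 genes were low. HTR12, the H3 of centromeres, was at 0.489, 3.34 and 1.97 FPKM in EsANAC029-OE, from 20, 155 and 79 reads, against 1.07, 0.994 and 1.65 FPKM in wild type, with the replicate 1 value below and the other two above wild type (log2 fold change 0.27 ± 0.408, SE; adjusted p = 0.698, limma). HTR11, which lies beside the H3.1 gene AT5G65360 on chromosome 5, was at 0.212, 5.87 and 2.96 FPKM in EsANAC029-OE and at 0.895, 2.79 and 1.41 FPKM in wild type. MGH3, an H3 gene of the male germ line, was at 0 in all 6 libraries, as was AT5G12910. AT1G13370, an H3-like gene too low to be tested, was named after its values were seen: it had 7, 6 and 11 reads in EsANAC029-OE and 2, 1 and 2 reads in wild type. AT1G75600 had at most 0.123 FPKM. A count of 0 allows up to 3 reads, which for a gene of 1000 bases is 0.115 to 0.133 FPKM in the EsANAC029-OE libraries and 0.150 to 0.163 FPKM in wild type. Such limits cover counting error only.

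The 8 H4 genes of Arabidopsis are copies that encode the same protein. AT5G59690, the H4 gene with the highest level and with the octamer printed above, was at 22.1, 145 and 94.4 FPKM in EsANAC029-OE and at 85.7, 70.3 and 98.1 FPKM in wild type. HIS4 was at 11.4, 58.6 and 44.6 FPKM in EsANAC029-OE and at 47.1, 37.9 and 47.9 FPKM in wild type. Their log2 fold changes were -0.31 ± 0.665 and -0.48 ± 0.577 (SE; adjusted p = 0.792 and 0.624, limma). In 7 of the 8 genes replicate 1 was lowest and replicate 2 highest, and in those 7 replicate 1 differed from the wild-type mean by -2.06 to -0.67 on the log2 scale. The exception was AT1G07660, at 18.9, 30.3 and 26.6 FPKM in EsANAC029-OE and at 21.4, 18.8 and 17.4 FPKM in wild type, where replicate 1 lay among the wild-type libraries. AT1G07660 and AT5G59690 both have an octamer in their windows. The 8 coding sequences, of 312 bases each, are 78.8% to 98.1% identical in pairs. Summed, H4 came to 107, 486 and 315 FPKM in EsANAC029-OE and to 289, 240 and 304 FPKM in wild type.

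Among H2A genes the canonical copies split and most variants did so too. HTA10 was the canonical copy with the highest level, at 20.5, 87.7 and 61.0 FPKM in EsANAC029-OE and at 44.6, 40.9 and 60.1 FPKM in wild type (log2 fold change 0.01 ± 0.524, SE; adjusted p = 0.996, limma). HTA1, a canonical copy known for its part in Agrobacterium transformation, did not follow it. HTA1 was at 22.3, 34.4 and 34.8 FPKM in EsANAC029-OE and at 21.9, 21.7 and 19.5 FPKM in wild type. The groups of HTA1 did not overlap, by a margin of under 1 FPKM for replicate 1, and its log2 fold change was 0.49 ± 0.212 (SE; adjusted p = 0.192, limma). The summed canonical H2A came to 68.4, 232 and 163 FPKM in EsANAC029-OE and to 128, 113 and 146 FPKM in wild type.

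H2A.X, the form phosphorylated at broken DNA, is encoded by HTA3 and HTA5. HTA5 was at 38.0, 62.3 and 41.5 FPKM in EsANAC029-OE and at 52.2, 41.8 and 69.5 FPKM in wild type, and HTA3 at 6.96, 16.4 and 12.1 FPKM in EsANAC029-OE and at 8.38, 6.09 and 6.64 FPKM in wild type. Neither had replicate 1 lowest with replicate 2 highest, and neither was called (log2 fold changes -0.21 ± 0.275 and 0.61 ± 0.311, SE; adjusted p = 0.660 and 0.253, limma). HTA3 is overlapped on the opposite strand by 2 annotated genes, one of them AT1G07983, a member row for a long noncoding RNA that was at 0 in all libraries.

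H2A.W, the plant form of heterochromatin, is encoded by HTA6, HTA7 and HTA12. HTA6 showed the widest split of these, at 10.8, 109 and 54.7 FPKM in EsANAC029-OE and at 61.2, 40.9 and 63.8 FPKM in wild type (log2 fold change -0.41 ± 0.786, SE; adjusted p = 0.767, limma). HTA12 ran the other way, at 5.49, 2.68 and 1.47 FPKM in EsANAC029-OE and at 3.69, 4.13 and 3.03 FPKM in wild type, with replicate 1 the highest of the 6 libraries and replicate 3 the lowest. The H2B gene AT5G02570, which lies wholly inside HTA12 on the opposite strand, was at 0 in all 6 libraries.

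H2A.Z, which sits at the first nucleosome of genes and takes part in their response to temperature and other cues, is encoded by HTA8, HTA9 and HTA11. HTA9 carried most of the class, at 82.0, 152 and 130 FPKM in EsANAC029-OE and at 123, 129 and 117 FPKM in wild type (log2 fold change -0.07 ± 0.265, SE; adjusted p = 0.893, limma). HTA11 spread far more, at 2.63, 38.8 and 20.5 FPKM in EsANAC029-OE and at 14.7, 14.5 and 18.6 FPKM in wild type. HTA8 was high only in replicate 2, at 3.50, 13.4 and 4.22 FPKM in EsANAC029-OE and at 5.38, 4.30 and 5.34 FPKM in wild type (log2 fold change 0.22 ± 0.448, SE; adjusted p = 0.783, limma). The 3 genes of this replacement form thus had replicate 1 lowest and replicate 2 highest, as the replication-linked forms did.

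HTA4, a divergent H2A gene, was the member with the largest fold change. It was at 2.07, 4.10 and 13.1 FPKM in EsANAC029-OE, from 36, 81 and 224 reads, against 14.3, 23.5 and 17.0 FPKM in wild type. All 3 EsANAC029-OE values lay below wild type, replicate 3 only just. The log2 fold change was -1.65 ± 0.556 (SE; adjusted p = 0.119, limma), and it passed the threshold when replicate 3 was left out (-2.26; adjusted p = 0.0378). HTA4 is overlapped by 212 bases of another annotated gene on the opposite strand. The member row AT4G04835, a microRNA locus annotated as MIR841b, is 94.1% identical over its whole 495 bases to a stretch of HTA4 read on the opposite strand, by blastn, so reads of the loci may have been shared. AT4G04835 was at 1.495, 0.233 and 0.807 FPKM in EsANAC029-OE, from 17, 3 and 9 reads, and at 1.11, 3.36 and 3.18 FPKM in wild type, and its groups overlapped.

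Of 11 H2B genes, 9 were tested and 7 had replicate 1 lowest with replicate 2 highest. HTB4 had the highest level, at 72.9, 146 and 88.9 FPKM in EsANAC029-OE and at 87.6, 80.3 and 109 FPKM in wild type (log2 fold change 0.10 ± 0.298, SE; adjusted p = 0.851, limma). HTB2, with the E2F letters upstream, had the wider split, at 13.1, 107 and 59.7 FPKM in EsANAC029-OE and at 58.6, 45.5 and 58.8 FPKM in wild type. The exceptions were AT2G28720 (H2B.3), whose replicate 2 was the lowest of the libraries at 24.9 FPKM, against 32.1 to 42.3 FPKM in wild type, and AT3G09480 (H2B.5). AT3G09480, which had the largest fold change of the class, was at 3.11, 3.72 and 1.32 FPKM in EsANAC029-OE and at 0.945, 1.52 and 1.61 FPKM in wild type (0.61 ± 0.315, SE; adjusted p = 0.263, limma). Summed, H2B came to 224, 576 and 375 FPKM in EsANAC029-OE and to 377, 325 and 399 FPKM in wild type.

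**Figure D4:**
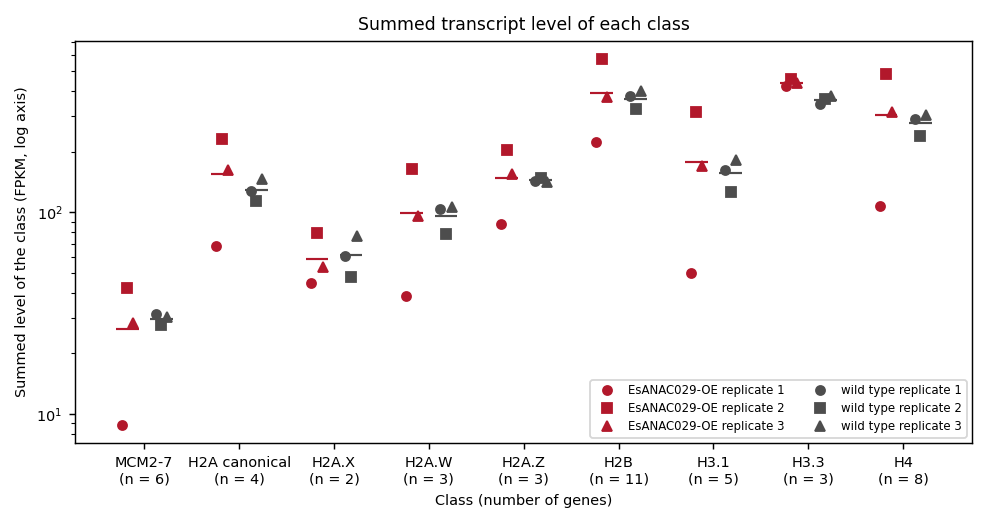
Summed level in FPKM (log axis) of the genes of each class in each library, EsANAC029-OE (red) left of wild type (grey), with the group mean as a bar and replicates 1, 2 and 3 as circle, square and triangle. In every class drawn but H3.3 the red circle lies below and the red square above the grey points; all 3 red H3.3 points, from 423 to 458 FPKM, lie above the grey ones.

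All 46 core histone genes together came to 1048, 2528 and 1783 FPKM in the EsANAC029-OE libraries and to 1625, 1471 and 1751 FPKM in wild type. When the copies of each class were summed before fitting, none of the 11 classes was called. The largest class fold changes were those of HTA4 alone and of the 6 H3 genes outside H3.1 and H3.3 (0.43 ± 0.576, SE; adjusted p = 0.658, limma). For MCM2-7 the fitted value was -0.41 ± 0.527 (SE; adjusted p = 0.648).

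Of the 6 rows outside both groups, none of the 3 tested had the order of replicate 1 lowest and replicate 2 highest. emb1688 is described as MCM2/3/5, yet the same table annotates its protein as a GTPase of the RsgA kind, as it does AT1G67460. emb1688 was at 5.05, 6.26 and 7.79 FPKM in EsANAC029-OE, all below the 10.8, 10.5 and 10.7 FPKM of wild type, and its log2 fold change was -0.68 ± 0.185 (SE; adjusted p = 0.0752, limma). AT1G67460, too low to be tested, was at 0.314, 0.297 and 0.160 FPKM in EsANAC029-OE and at 0.930, 1.19 and 0.531 FPKM in wild type. AT3G07565, described as a histone H2A deubiquitinase subunit, was at 16.0, 10.1 and 12.5 FPKM in EsANAC029-OE and at 12.4, 13.6 and 11.2 FPKM in wild type (0.03 ± 0.201, SE; adjusted p = 0.939, limma), with replicate 1 the highest. AT5G12920, a WD40 protein gene that overlaps an H3-like gene, was untested at 0.318, 1.41 and 1.07 FPKM in EsANAC029-OE and at 0.617 to 0.791 FPKM in wild type, and had that order.

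Leaving out 1 library changed which members were called. Without EsANAC029-OE replicate 1, 2748 of 16795 genes were called (16.4%) and 5 of the 49 members were among them. HTA1 (0.70; adjusted p = 0.0203), HTA3 (0.92; adjusted p = 0.0338), the H2B gene AT3G53650 (1.09; adjusted p = 0.0261) and the H3.1 gene AT3G27360 (1.12; adjusted p = 0.0482) rose in that limma fit, and emb1688 fell (-0.54; adjusted p = 0.0499). That share, 5 of 49, lies below that of all genes. AT3G53650 was at 1.69, 10.4 and 6.55 FPKM in EsANAC029-OE and at 3.41, 3.14 and 3.58 FPKM in wild type, so its direction in replicate 1 was opposite to that in the other two. Without EsANAC029-OE replicate 2 no member was called.

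The genes that work beside these proteins were read in 9 lists of 93 genes, 83 of them tested. Of these 83 genes 1 was called, against 7.89% of all genes tested. The order of EsANAC029-OE replicate 1 lowest and replicate 2 highest, counted below by list, was held by 7.69% of all genes tested. The licensing factors that load the helicase followed it in part: of 8 tested genes of origin recognition and licensing, 0 were called, and 4 had replicate 1 lowest and replicate 2 highest, ORC1B among them at 0.153, 2.29 and 1.58 FPKM in EsANAC029-OE and 1.18 to 1.69 FPKM in wild type. CDC45, which joins MCM2-7 in the active helicase, was at 0.300, 2.66 and 2.03 FPKM in EsANAC029-OE and at 2.18, 1.501 and 2.08 FPKM in wild type (-0.25 ± 0.409, SE; adjusted p = 0.718, limma). Of 7 tested genes of CDC45, GINS and MCM10, 0 were called, and 2, CDC45 and MCM10, had replicate 1 lowest and replicate 2 highest. Replicate 1 lay below all wild-type libraries in 5 of the 7 and above them all in 2, PSF1 and PSF3B.

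Of 17 genes of polymerases, sliding clamp and nucleotide supply, 0 were called and 9 had the same order. PCNA1, the clamp, was at 1.46, 12.3 and 4.56 FPKM in EsANAC029-OE and at 6.51, 5.31 and 6.05 FPKM in wild type. PCNA2, its second copy, was at 3.68, 19.5 and 10.02 FPKM in EsANAC029-OE and at 11.6, 11.5 and 13.2 FPKM in wild type. TSO2, a small subunit of ribonucleotide reductase, was at 3.65, 27.2 and 19.7 FPKM in EsANAC029-OE and at 17.0, 13.5 and 21.8 FPKM in wild type. In PCNA1 and PCNA2 only replicate 2 exceeded wild type.

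Of 13 histone chaperone genes 0 were called. FAS1, of the CAF-1 complex that places H3.1 on new DNA, was at 1.79, 5.13 and 3.88 FPKM in EsANAC029-OE and at 5.67, 3.297 and 4.29 FPKM in wild type, and ASF1B at 2.66, 8.54 and 6.81 FPKM in EsANAC029-OE and at 7.18, 4.73 and 5.23 FPKM in wild type (-0.29 and -0.03; adjusted p = 0.615 and 0.966, limma). NRP1 and NRP2, relatives of NAP1 that bind H2A and H2B, lay above wild type in all 3 EsANAC029-OE libraries, NRP1 at 48.0, 63.5 and 48.1 FPKM against 25.6 to 34.5 FPKM in wild type, and they were named after their values were seen; neither was called (0.82 and 0.87; adjusted p = 0.0564 and 0.0637). MSI1, another CAF-1 subunit, was at 19.6, 22.1 and 16.4 FPKM in EsANAC029-OE and at 15.1 to 15.9 FPKM in wild type, and NAP1;3 at 17.5, 22.7 and 18.1 FPKM in EsANAC029-OE and at 20.3 to 24.1 FPKM in wild type. Over all 13 chaperones the median log2 fold change was 0.34, and 1 had the order of replicate 1 lowest and replicate 2 highest. Of the 3 linker histones 0 were called. H1.3, the drought-linked one, was at 21.6, 12.5 and 6.47 FPKM in EsANAC029-OE and at 6.78, 9.37 and 6.84 FPKM in wild type, with replicate 1 the highest (0.62 ± 0.406, SE; adjusted p = 0.366, limma).

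Of 8 tested genes of E2F, DP and RBR1, 0 were called and 1, DEL3, had replicate 1 lowest and replicate 2 highest, at 0.277, 2.91 and 1.23 FPKM in EsANAC029-OE and at 1.17 to 1.77 FPKM in wild type. RBR1, which holds E2F factors in check, was at 16.5, 11.6 and 11.9 FPKM in EsANAC029-OE and at 9.92, 9.42 and 10.1 FPKM in wild type, and E2FA at 1.65, 2.78 and 2.77 FPKM in EsANAC029-OE and at 2.01, 1.34 and 1.98 FPKM in wild type (0.39 and 0.28; adjusted p = 0.218 and 0.461, limma). Of 11 G2 and mitosis genes 0 were called, yet 10 had replicate 1 lowest and replicate 2 highest. Their median difference from wild type on the log2 scale was -1.04, 1.65 and 0.03 in EsANAC029-OE replicates 1, 2 and 3. CDKB2;1, a kinase of the G2 to M step, was at 0.860, 15.5 and 2.79 FPKM in EsANAC029-OE and at 5.53, 6.67 and 5.79 FPKM in wild type, and CYCB1;1 at 0.321, 5.68 and 1.17 FPKM in EsANAC029-OE and at 0.276, 1.38 and 0.699 FPKM in wild type (-0.52 and 0.63; adjusted p = 0.690 and 0.538).

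Among 10 tested CDK inhibitors 0 were called, and 1 had that order. Of 7 tested DNA damage genes 1 was called: SOG1, the regulator of the plant DNA damage response, at 11.7, 13.3 and 13.8 FPKM in EsANAC029-OE and at 7.94, 7.33 and 7.13 FPKM in wild type, rose by 0.72 ± 0.148 on the log2 scale (SE; adjusted p = 0.0410, limma). SOG1 was the only call in these lists, while 7.89% of all genes tested were called. It lost the call when EsANAC029-OE replicate 2 or 3 or any wild-type library was left out.

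**Figure D5:**
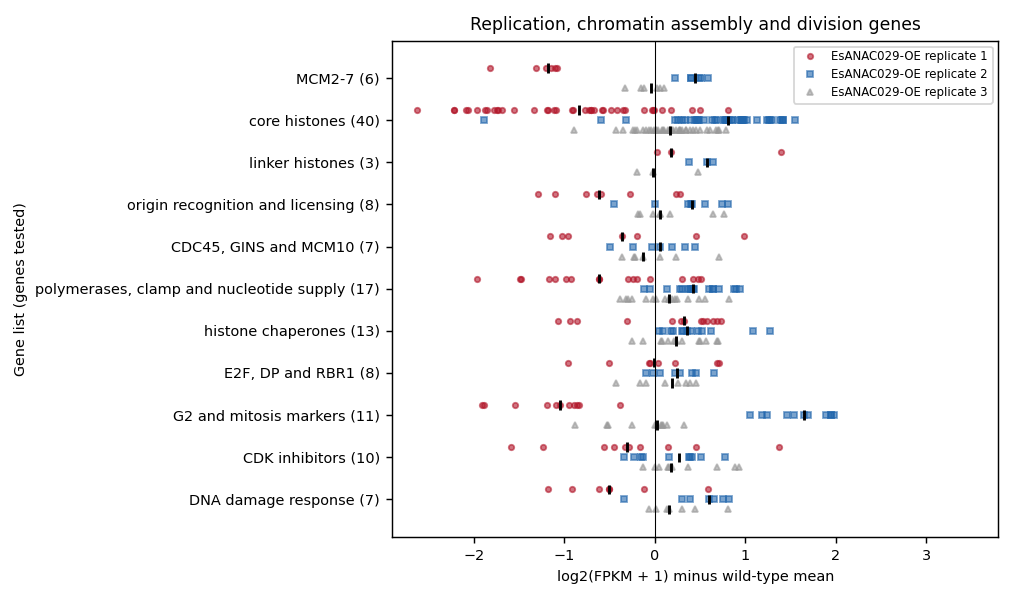
Difference from the wild-type mean on the log2(FPKM + 1) scale (horizontal) of each tested gene in EsANAC029-OE replicates 1 (red circles), 2 (blue squares) and 3 (grey triangles), for the MCM2-7 genes, the core histones and 9 lists of related genes, with the median of each as a black bar. Replicates 1 and 2 lie furthest apart in G2 and mitosis genes, with medians of -1.04 and 1.65, and least in histone chaperones.

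The genes whose levels were most like the mean standardised profile of MCM2-7 were looked up across the 6 libraries, as a description; the points share their library, scaling and depth. The 10 nearest non-members had a Pearson r of 0.994 to 0.998. They were BRXL2, AT3G15680, both tubulin genes named TUBB3 (AT5G62690 and AT5G62700), AT5G06050, TUBA4, GALT4, AT2G12462, LECRK81 and AT1G67320, which is a primase subunit gene of the list above. TUBA4, an alpha tubulin, was at 14.2, 127 and 71.8 FPKM in EsANAC029-OE and at 77.6, 62.3 and 89.4 FPKM in wild type. Among histone genes the nearest to that profile was the H2B gene AT2G37470 (H2B.4; r = 0.994), at 5.39, 38.7 and 22.0 FPKM in EsANAC029-OE and at 25.9, 26.4 and 26.3 FPKM in wild type. The members furthest from it were AT3G07565 (r = -0.91), HTA12 (r = -0.60) and the H3.3 gene AT4G40040 (r = -0.44).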

How the data were processed

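Messenger RNA was measured from TRIzol-extracted total RNA by paired-end sequencing of 150 bp on an Illumina NovaSeq X Plus, per the labels' protocols. CASAVA 1.8, HISAT2 and edgeR were used by the authors with the TAIR10 build, per the submitters' processing notes; the role of each tool, and the counting program, strand setting and gene models, are not stated there. The table deposited by the authors holds FPKM values beside each gene's length; the unit is not in the header and was inferred: dividing value times length by a constant of the library gave whole numbers for 100% of values (tolerance 1e-06). These whole numbers are the reads behind each value, 19608819 to 21715274 a library. Beyond library size the values carried a relative factor, from 0.861 in wild type replicate 3 to 1.24 in EsANAC029-OE replicate 2. In every library it equalled the factor from the median ratio of reads to their geometric mean across libraries. The deposited values were thus not scaled by library size alone. Intervals from them would cover counting error only.

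Groups are the labelled genotypes. Genes that reached 1 FPKM in 3 or more libraries were fitted as log2(FPKM + 1) on genotype with limma 3.58.1 in R 4.3.3 (trended, moderated variance, two-sided) and called when the Benjamini-Hochberg adjusted p was below 0.05. Fold changes are on that scale, with a pseudocount of 1, and understate changes of low genes. The script was tested on simulated data. The members, lists and tests were chosen with earlier results of these data known. Of each class the member with the highest level and that with the largest fold change were named, with HTR12, MGH3, up to 3 called genes of each list and 10 fixed genes; other genes were named after their values were seen. Alternatives were scaling by library size or by trimmed mean of M values, a pseudocount of 0.1, no filter or a minimum of 5 FPKM, a replicate block, limma-voom, an adjusted p under 0.01, copies summed by class, and leaving out each library. Gene names are those of the table or of RefSeq (TAIR10.1), in which 32548 of 32962 genes matched by locus tag. Coding sequences were compared base by base, and the microRNA locus by blastn 2.17.0.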

Additional observations from a re-analysis of the deposited data

How the results depend on the processing

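Of the genes named here, 34 were followed across the settings: those picked by the rules above and the members called under any setting. Values were read after taking off the shift of the median of all genes from the main fit. On that footing none of the 34 changed sign under another scaling, pseudocount, limma-voom, the replicate block or a minimum of 5 FPKM, where tested. Without a filter HTA10 was at -0.028 and AT3G07565 at -0.0037. Leaving out 1 library turned the direction of 20 of these 34 genes, with neither value called in any case where the sign differed, and their log2 fold changes ran as follows: MCM5 -0.51 to 0.27, MCM7 -0.87 to 0.30, HTA10 -0.41 to 0.62, HTA6 -1.10 to 0.52, HTA9 -0.24 to 0.21, HTA8 -0.29 to 0.55, HTB4 -0.17 to 0.33, AT5G65360 -0.91 to 0.37, AT3G27360 -0.012 to 1.14, HTR11 -0.23 to 1.03, AT5G59690 -0.84 to 0.49, HIS4 -0.91 to 0.23, AT3G07565 -0.11 to 0.19, HTR12 -0.066 to 0.72, PCNA1 -0.90 to 0.33, PCNA2 -0.85 to 0.22, CDC45 -0.54 to 0.22, FAS1 -0.52 to 0.057, ASF1B -0.30 to 0.40, CDKB2;1 -1.38 to 0.20. Other named genes were not followed through every setting. Some of them, HTA11 and HTB2 for example, also changed sign without EsANAC029-OE replicate 1. SOG1 ran from 0.67 to 0.80 and was not called without a filter (0.68) or with the block (0.72). The count of called members was 1 with library size alone, 0 to 5 when 1 library was left out, and 0 otherwise. Over all genes, 1359 were called, against 3126 with library size alone (2749 higher and 377 lower, where the 1359 were 743 and 616), 862 with limma-voom, 819 without a filter, 117 at an adjusted p under 0.01 and 59 to 2748 when 1 library was left out. Of the related lists 1 gene was called, against 13 with library size alone, 0 without a filter, 0 with the block, 0 at an adjusted p under 0.01 and 0 to 7 when 1 library was left out. The labels do not say whether same-numbered libraries belong together. Their deviations from the group means had correlations of -0.20, -0.05 and -0.10. With means of 3 libraries these cannot show whether samples were grown as numbered sets. A replicate block called 16 genes and no member. The cause of these shifts was not tested. Fits that leave out a library also rest on fewer samples. The planned edgeR fit was not run, because the table holds FPKM and not counts. EsANAC029-OE replicate 1 was lowest and replicate 2 highest of the 6 libraries in 36 of the 49 tested members (7.69% of all genes tested). With 3 libraries a group, what can be called is limited.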
